A study of Mus musculus with 8 samples.

Results

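The MHC class II presentation genes analysed here were 10 genes chosen by name: H2-Aa, H2-Ab1 and H2-Eb1, which encode chains of the class II molecules I-A and I-E, Cd74, which encodes the invariant chain, H2-DMa, H2-DMb1 and H2-DMb2, which encode the peptide editor H2-M, H2-Oa and H2-Ob, which encode its inhibitor H2-O, and Ciita, which encodes the class II transactivator. All 10 were among the 16536 gene symbols of the count table, and all 10 passed the filter on low counts that left 15421 genes for testing. The rule names the genes and uses no measured value, but the genes were chosen with earlier results of these data known.

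RNA was sequenced from growth plate cells of 8 Pthrp-mCherry mice, in which mCherry reports expression of Pthlh, the gene of PTHrP. SAG, an agonist of Smoothened that activates the Hh pathway, was injected i.p. once daily from P30 to P36 in 4 mice, and DMSO, its vehicle, in the other 4, and all mice were sacrificed at P38 (the methods of the study date the injections a day later). For each mouse, the growth plate regions of both femora (the tissue labels read metaphyseal growth plate) were dissected and digested, viable mCherry+CD73+ cells were sorted, and 1 library was made. All groups carried the same reporter, and male and female animals were used, without a label of sex for each library.

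Class II molecules carry peptides from the endosomes to the surface of dendritic cells, macrophages, and B cells, where CD4+ T cells read them. The invariant chain fills the peptide groove of newly made class II molecules and directs them to the endosomes, H2-M then exchanges its remnant for peptides, and H2-O restrains H2-M. Ciita does not bind DNA itself but is recruited by factors on the X and Y boxes of class II promoters, and it is switched on by interferon gamma in many cell types that do not make class II molecules at rest. Whether SAG altered the mRNA levels of these genes in the sorted cells is the question of the comparison below.

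Positions are given for 9 of the 10 genes in GRCm38 (GENCODE release M21). H2-Oa (17, 34092340 to 34095234), H2-DMa (17, 34119541 to 34139101), H2-DMb2 (17, 34143307 to 34151555), H2-DMb1 (17, 34153072 to 34160230), H2-Ob (17, 34238903 to 34254414), H2-Ab1 (17, 34257689 to 34269419), and H2-Eb1 (17, 34305867 to 34316674) are on the plus strand of the MHC region. H2-Aa (17, 34282744 to 34287823) is on its minus strand, and Ciita (16, 10480059 to 10528418) is on the plus strand. The 10 genes are annotated as protein coding.

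The X and Y boxes through which class II promoters are read are shown because Ciita acts on the chain genes of class II through them. Windows from 250 bases before to 50 bases after the RefSeq start sites (GRCm38.p6) were searched on both strands for the X box core (AGNAAC directly followed by NNATG, where N is any base) followed by the Y box ATTGG after 10 to 40 bases, without overlap between them. Windows were at hand for 7 of the 10 genes (not for H2-Ab1, Cd74, and Ciita), and 3 of these 7, H2-DMb1, H2-Ob, and H2-Eb1, held the ordered pair, which was present in 6 of 27025 genes, or 0.0222%. The Y box alone was found in 7 of 7 genes and in 41.1% of all genes, and the X box core alone in 3 of 7 and in 1.04% of all genes. When 1 of the 8 fixed letters of the X box core was allowed to differ, a search chosen after the windows had been seen, H2-DMb2 was added, and 0.725% of all genes held the pair. The stretches are given 5′ to 3′ on the plus strand, with capitals marking the X box core and the Y box and a lower-case letter within the core of H2-DMb2 marking the letter that differs. For H2-DMb1, whose stretch lies in an annotated 5′ UTR, only the core is printed, and its Y box followed after 23 bases.
H2-Eb1: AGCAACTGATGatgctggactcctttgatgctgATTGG
H2-Ob: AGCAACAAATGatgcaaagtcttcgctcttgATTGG
H2-DMb2: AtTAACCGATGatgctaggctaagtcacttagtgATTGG
H2-DMb1: AGTAACTGATG
The stretch of H2-Eb1 is chr17:34305775-34305812 and runs from 92 to 55 bases before the start site. That of H2-Ob is chr17:34238817-34238852, from 88 to 53 bases before the start site, and that of H2-DMb2 is chr17:34145125-34145163, from 124 to 86 bases before it. The core of H2-DMb1 begins 95 bases before its start site. A match is a description of letters and not evidence of binding.

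Between 24971992 and 46593090 reads were counted on genes per library, and 3 counts corresponded to between 0.0644 and 0.120 CPM (reads scaled for library size with TMM factors), a floor that covers counting error only. DMSO replicate 4 stood apart from the other libraries. It had the lowest total and the fewest detected genes (14416, against 15524 to 16285 in the others), and its Spearman's rho across genes with the other DMSO libraries was between 0.834 and 0.868, against 0.926 to 0.938 among those. Fold changes, counts of calls, and ratios that rest on this library are therefore also given without it.

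SAG treatment was not accompanied by a change in any of the 10 genes that passed the test across all genes. By edgeR's quasi-likelihood test with Benjamini-Hochberg adjustment, 0 of the 10 were called higher and 0 lower, against 2.62% of all tested genes called higher and 0.266% called lower. At an unadjusted p under 0.05, 3 of the 10 genes were lower (H2-Ab1, H2-Aa, and Cd74), against 6.5% of all tested genes, and 0 were higher, against 9.58%. DESeq2 called 1 of the 10, H2-Ab1, lower, against 3.35% of the genes to which it gave an adjusted p, and 0 higher, against 6.6%. It gave Ciita no adjusted p. The log2 fold change was below 0 for 8 of the 10 genes, as it was for 54.8% of all tested genes, and its median over the 10 was -0.43, beside -0.08 over all tested genes. Without DMSO replicate 4, edgeR called 0 of the 10 genes in either direction, against 6.44% of all genes higher and 2.17% lower, and the medians were -0.12 and -0.02. In simulated data with the same genes and libraries, edgeR recovered 0% of 2-fold, 42% of 4-fold, and 66% of 8-fold changes. These shares are over 200 genes drawn at random from all levels and spreads, so most 2-fold differences would be missed by this test. A change near 2-fold can still pass for a gene with little spread, as that of H2-D1 did (0.99 on the log2 scale, given below).

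**Figure D1:**
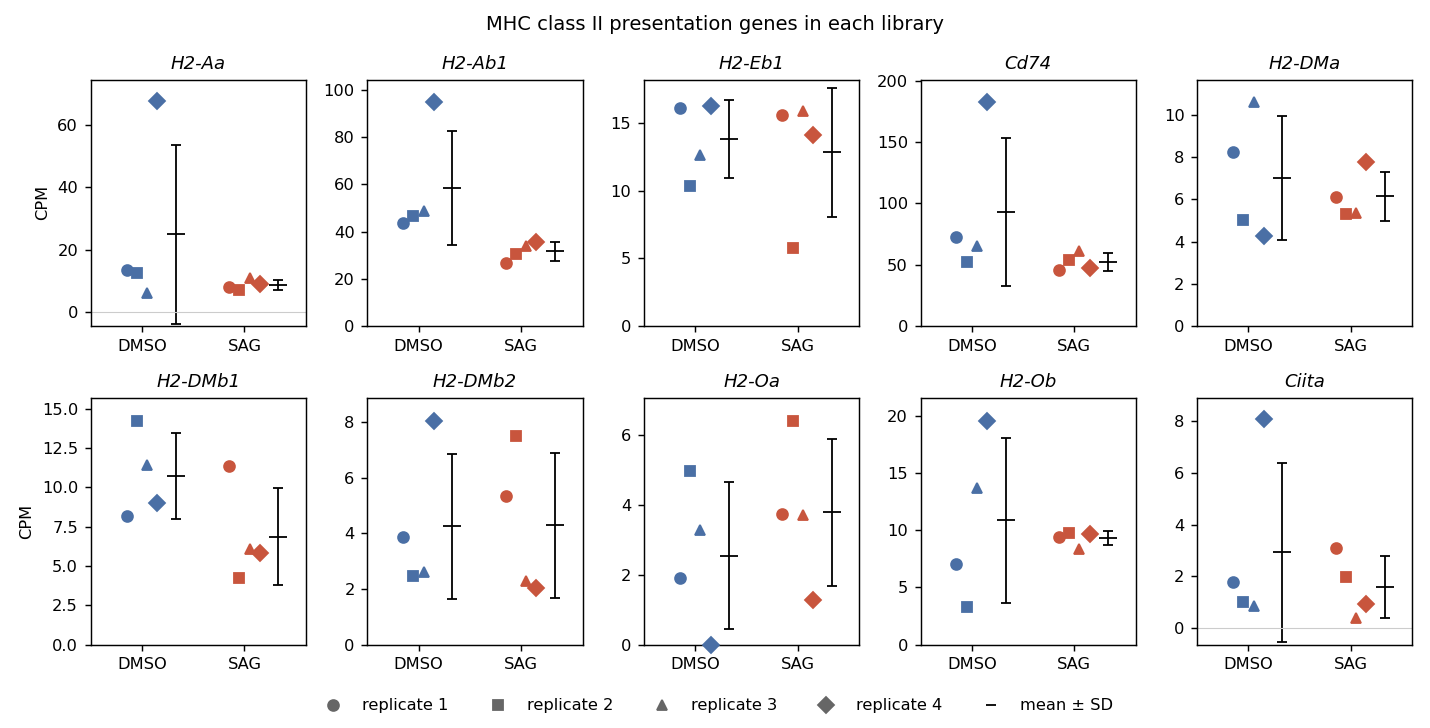
CPM of the 10 MHC class II presentation genes (vertical axes, linear and different for each gene) in the 4 DMSO and 4 SAG libraries, with a marker for each replicate number and the mean ± SD beside them. The groups do not overlap for H2-Ab1, and DMSO replicate 4, the blue diamond, lies far above the other libraries for H2-Aa, Cd74, and Ciita.

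H2-Ab1, the beta chain of I-A, was the gene for which the groups stood apart. Its level was 43.6, 46.7, 48.8, and 94.9 CPM in DMSO replicates 1 to 4 and 26.6, 30.4, 33.9, and 35.6 CPM in SAG replicates 1 to 4. Every SAG library was below every DMSO library, which held for 1 of the 10 genes and, in this direction, for 3.84% of all tested genes. The reverse held for 0 of the 10 and for 7.9% of all tested genes. The mean level was 58.5 ± 24.3 CPM with DMSO and 31.6 ± 4.01 CPM with SAG (SD, n = 4 each), and the log2 fold change was -0.89 (SE 0.28, 95% interval -1.51 to -0.27, adjusted p = 0.131 by edgeR). DESeq2 gave -0.93 with an adjusted p of 0.0415. Without DMSO replicate 4 the log2 fold change was -0.53 (adjusted p = 0.167), and the DMSO mean was 46.4 ± 2.61 CPM (SD, n = 3). In bulk samples such as these, fewer cells that express a gene and less of its RNA in each cell cannot be told apart.

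H2-Aa encodes the alpha chain that pairs with the product of H2-Ab1. Its level was 13.5, 12.5, 6.13, and 67.6 CPM in the DMSO libraries and 7.96, 7.11, 10.9, and 8.87 CPM in the SAG libraries. Only DMSO replicate 4 was high, at 6.32 times the mean of the other 3 DMSO libraries, and those overlapped with the SAG libraries. The log2 fold change was -1.51 (SE 0.64, 95% interval -2.93 to -0.10, adjusted p = 0.267), and without DMSO replicate 4 it was -0.27 (adjusted p = 0.772). H2-Eb1, the beta chain of I-E, was measured at 16.1, 10.3, 12.6, and 16.2 CPM with DMSO and at 15.6, 5.77, 15.8, and 14.1 CPM with SAG. The groups overlapped, SAG replicate 2 was the lowest library, and the log2 fold change was -0.11 (95% interval -0.98 to 0.77, adjusted p = 0.941). Without DMSO replicate 4 the log2 fold change of H2-Eb1 was 0.0085 (adjusted p = 0.995).

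The alpha chain with which the product of H2-Eb1 pairs is encoded by H2-Ea, which some mouse strains, among them C57BL/6, do not express; the strain background is not given in the sources used here. The count table held no entry named H2-Ea. The entry H2-Ea-ps held 0 to 2 counts in each of the 8 libraries and was not tested. H2-Eb2, a second beta chain gene of I-E, was at 0.396 to 2.02 CPM with DMSO and 1.02 to 4.04 CPM with SAG, and its log2 fold change was 0.81 (adjusted p = 0.777).

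Cd74, the invariant chain, had the highest level of the 10 genes. It was at 72.7, 51.9, 65.5, and 182.5 CPM in the DMSO libraries and at 45.5, 54.2, 61.3, and 46.9 CPM in the SAG libraries. As for H2-Aa, DMSO replicate 4 alone was high, at 2.88 times the mean of the other 3 DMSO libraries. Its log2 fold change was -0.84 (SE 0.36, 95% interval -1.62 to -0.06, adjusted p = 0.263), and without DMSO replicate 4 it was -0.26 (adjusted p = 0.529).

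H2-DMa, the alpha chain of H2-M, was at 8.23, 5.0, 10.6, and 4.25 CPM with DMSO and at 6.09, 5.32, 5.36, and 7.78 CPM with SAG. DMSO replicate 4, which was highest for the chains of I-A and for Cd74, was the lowest library here, and the SAG libraries lay within the range of the DMSO libraries. Of its 31-base words, 9.23% are shared with transcripts of Brd2. With SAG, the log2 fold change was -0.19 (95% interval -1.29 to 0.90, adjusted p = 0.905), and without DMSO replicate 4 it was -0.34 (adjusted p = 0.726).

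The beta chain of H2-M is encoded by a pair of neighbouring genes, H2-DMb1 and H2-DMb2, whose transcripts share 31.4% and 29.7% of their 31-base words with each other. Reads on the shared stretches could be assigned to either gene, so the level of each is uncertain. H2-DMb1 was at 8.16, 14.2, 11.4, and 9.04 CPM with DMSO and at 11.4, 4.21, 6.08, and 5.84 CPM with SAG, and the log2 fold change was -0.64 (95% interval -1.65 to 0.36, adjusted p = 0.561). SAG replicate 1 was within the DMSO range, and the other 3 SAG libraries were below it. H2-DMb2 was at 3.87, 2.46, 2.60, and 8.05 CPM with DMSO and at 5.35, 7.49, 2.27, and 2.03 CPM with SAG, a log2 fold change of 0.01 (95% interval -1.56 to 1.59, adjusted p = 0.996) whose sign changed with the scaling of the libraries. Without DMSO replicate 4 the log2 fold change was -0.69 for H2-DMb1 (adjusted p = 0.413) and 0.55 for H2-DMb2 (adjusted p = 0.712). The sum of both, which does not depend on how shared reads were split between them, was 12.0, 16.7, 14.0, and 17.1 CPM with DMSO and 16.7, 11.7, 8.35, and 7.87 CPM with SAG, and its groups overlapped.

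H2-Oa, the alpha chain of the inhibitor H2-O, was at 1.91, 4.98, 3.29, and 0 CPM with DMSO and at 3.74, 6.42, 3.71, and 1.28 CPM with SAG. DMSO replicate 4 held 0 counts, which allows up to 0.120 CPM, while the other libraries held between 56 and 270 counts. The log2 fold change was 0.57 (SE 1.18, 95% interval -2.01 to 3.15, adjusted p = 0.882), and without DMSO replicate 4 it was 0.19 (adjusted p = 0.923). Of its 31-base words, 18.3% are shared with the annotated transcript BC051537, to which reads could also have been assigned.

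H2-Ob, the beta chain of H2-O, was at 7.02, 3.28, 13.7, and 19.6 CPM with DMSO and at 9.46, 9.79, 8.40, and 9.69 CPM with SAG. The 4 SAG libraries lay close together, with an SD of 0.641 CPM around a mean of 9.33, and within the range of the DMSO libraries, whose SD was 7.24 CPM. For H2-Ob, the log2 fold change was -0.22 (95% interval -1.37 to 0.92, adjusted p = 0.897), and it was 0.25 without DMSO replicate 4, which was not called either. The chains of H2-O thus went opposite ways in DMSO replicate 4, which held the highest level of H2-Ob and no counts of H2-Oa.

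Ciita, on which expression of the class II genes depends, had low counts. Its level was 1.77, 1.0, 0.845, and 8.09 CPM with DMSO and 3.10, 1.97, 0.374, and 0.935 CPM with SAG, from between 15 and 213 counts per library. DMSO replicate 4 was 6.70 times the mean of the other 3 DMSO libraries, and those lay within the range of the SAG libraries. For Ciita, the log2 fold change was -0.87 (SE 1.08, 95% interval -3.23 to 1.49, adjusted p = 0.777), and it was 0.43 without DMSO replicate 4 (adjusted p = 0.877).

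**Figure D2:**
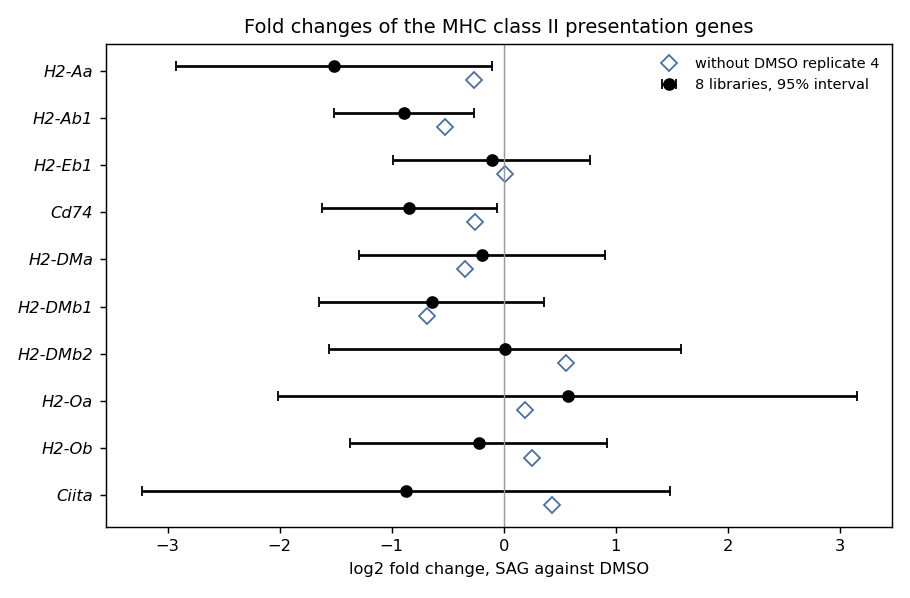
Log2 fold changes (horizontal axis, SAG against DMSO) of the 10 genes with 95% intervals from the 8 libraries (black) and without DMSO replicate 4 (open diamonds). The intervals of H2-Aa, H2-Ab1, and Cd74 end below 0 before adjustment over all genes, and the values without DMSO replicate 4 lie nearer to 0 for these genes.

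Summed over the 10 genes, the level was 177.0, 152.4, 175.5, and 410.3 CPM in the DMSO libraries and 134.7, 132.7, 148.2, and 133.0 CPM in the SAG libraries. The SAG libraries were below the DMSO libraries in this sum, and SAG replicate 3 and DMSO replicate 2 were the closest. Most of the sum came from Cd74 and H2-Ab1. Between 0.0125% and 0.0433% of all counts in a library fell on the 10 genes. DMSO replicate 4 held the highest level among the 8 libraries for 7 of the 10 genes and the lowest for 2.

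**Figure D3:**
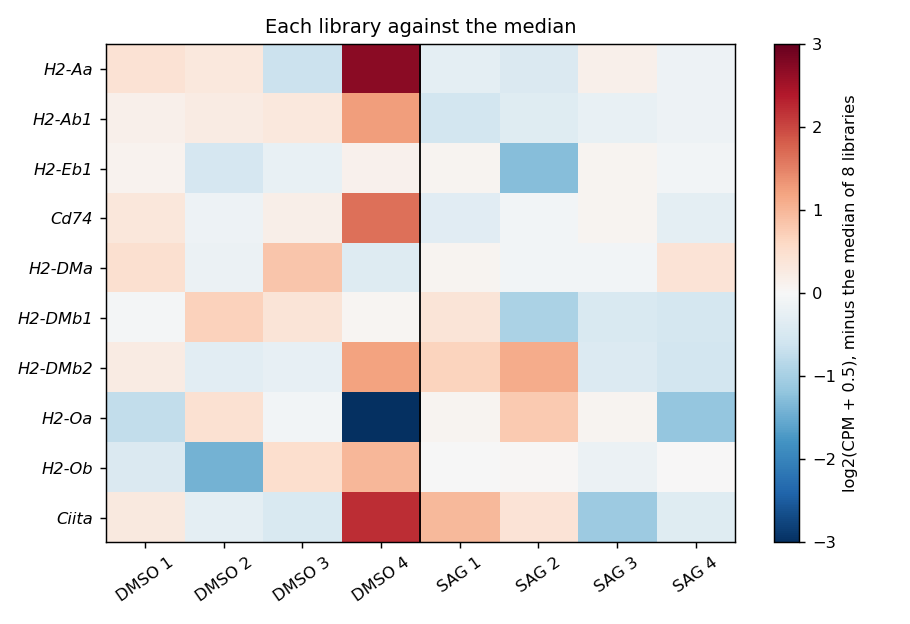
Log2(CPM + 0.5) of each gene (rows) in each library (columns), as the difference from the median of the 8 libraries (colour, red above and blue below). DMSO replicate 4 is the column that differs most, high for H2-Aa, Cd74, and Ciita and low for H2-Oa, which had 0 counts there.

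Ratios between members within a library do not depend on how libraries are scaled. For 7 ratios, the log2 ratio was compared between the groups with an exact 2-sided permutation test over the 70 relabellings of the libraries, whose smallest possible p is 0.0286. None of the 7 passed it, with raw p-values between 0.2 and 0.886 and adjusted values of 0.867 or 0.886. The ratio of H2-Aa to H2-Ab1, the chains of I-A, was 0.309, 0.267, 0.126, and 0.713 with DMSO and 0.30, 0.234, 0.323, and 0.249 with SAG, so that the SAG libraries were within the DMSO range. The ratio of Cd74 to H2-Ab1 was between 1.11 and 1.92 with DMSO and between 1.32 and 1.81 with SAG. H2-Eb1 over H2-Ab1 was between 0.171 and 0.369 with DMSO and between 0.190 and 0.588 with SAG (difference of the mean log2 ratios 0.63, exact permutation p = 0.2).

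Among the other 4 ratios, DMSO replicate 4 gave the highest or the lowest value in 3. H2-DMa over H2-Ab1 was 0.0448 there and between 0.107 and 0.229 in the other 7 libraries. H2-Ob over H2-DMa was 4.62 there and between 0.656 and 1.84 elsewhere, and H2-Oa over H2-DMa was 0 there and between 0.164 and 1.21 elsewhere. Ciita over H2-Ab1 was 0.0852 there, second to SAG replicate 1 at 0.117, and between 0.0110 and 0.0649 in the rest. The groups differed in the mean log2 ratio by 0.70, 0.18, 2.01, and 0.20 respectively, and without DMSO replicate 4 by 0.24 for H2-DMa over H2-Ab1, 0.77 for H2-Ob over H2-DMa, 0.37 for H2-Oa over H2-DMa, and 0.64 for Ciita over H2-Ab1.

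Levels between genes were compared per length, as CPM per kb of the union of annotated exons. The order of the medians over the 8 libraries was Cd74, H2-Ab1, H2-Eb1, H2-DMb1, H2-Aa, H2-Oa, H2-DMb2, H2-Ob, H2-DMa, and Ciita. Cd74 was at a median of 34.4 CPM per kb (range 27.1 to 108.7) and H2-Ab1 at 15.4 (10.3 to 37.0). Cd74 was above H2-Ab1 in 8 of 8 libraries (7 of 8 with the longest transcript as the length), although the ranges over all libraries overlapped. H2-Ab1 was above H2-Eb1, which was at 7.63 (2.97 to 8.34), in 8 of 8 libraries without overlap of the ranges. At the lower end, Ciita was at 0.146 CPM per kb (0.0392 to 0.848) and below H2-DMa, which was at 1.66 (1.23 to 3.07), in 8 of 8 libraries, also without overlap.

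The genes between these ends could not be ordered by their spread. H2-Eb1 was above H2-DMb1 in 6 of 8 libraries and H2-DMb1 above H2-Aa in 7 of 8, and the 4 following pairs of neighbours, from H2-Aa to H2-DMa, kept the order of their medians in 3 to 5 of 8 libraries. With the longest transcript in place of the exon union as the length, 5 of the 10 genes kept their place, the 4 highest and Ciita.

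**Figure D4:**
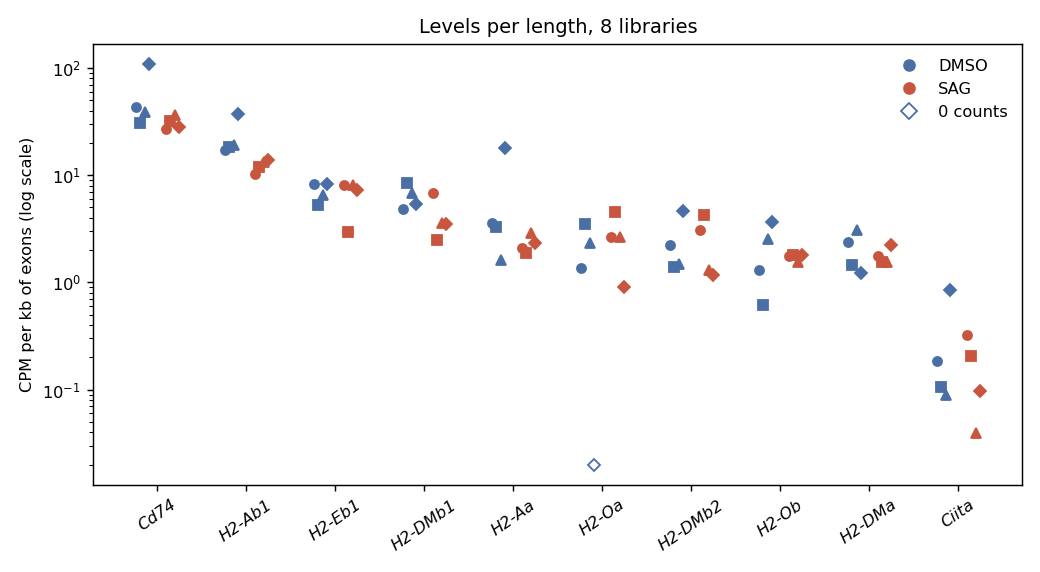
Levels per length (vertical axis, CPM per kb of exons, log scale) of the 10 genes in order of their median, for the 4 DMSO (blue) and 4 SAG (red) libraries, with marker shapes for replicates 1 to 4. Cd74 and H2-Ab1 lie at the top and Ciita at the bottom, and the open diamond marks the 0 counts of H2-Oa in DMSO replicate 4, drawn at the foot of the axis.

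When each library's mean deviation over the 10 genes from the group means (log2 scale, 8 libraries) was correlated with each gene's own deviation, Pearson's r was between -0.57 for H2-Oa and 0.90 for Ciita. Each of the 10 genes is itself part of this mean, and genes with a wide spread weigh most in it. A high r, as for Ciita with its low counts, therefore does not show that a gene follows the other members. Without DMSO replicate 4, r was 0.25 for H2-Oa and 0.80 for Ciita, and H2-Ab1 went from 0.40 to -0.90. The 10 other genes whose deviations were most like this mean, as a description over 8 points that share depth and library quality, were Fars2, Smg6, Dmap1, Pus10, Ints14, Spaar, Utp4, Agk, Tmem11, and Htra2 (r between 0.932 and 0.987). Only Fars2 and Smg6 remained among the 10 closest without DMSO replicate 4.

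Of the other genes of class II expression and antigen presentation, few passed the test. Among 11 factors of class II promoters, such as the X box binding RFX subunits and the Y box binding NF-Y subunits, 0 were called higher and 0 lower, and the median log2 fold change was -0.03. The largest in size were those of Ep300, a histone acetyltransferase (0.65, adjusted p = 0.103), and Nfya, a subunit of NF-Y (0.62, adjusted p = 0.248).

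Among 14 regulators of Ciita, 0 passed in either direction (median 0.25). Without DMSO replicate 4, 5 of the 14 were called higher, against 6.44% of all genes, and 0 lower. Among them were Spi1 (1.32 on the log2 scale), a transcription factor of myeloid and B cells, Jak1 (0.78) and Ifngr1 (0.69), which carry the interferon gamma signal, and Irf2 (0.73), which are named because of these calls, after their values were seen. Irf4, a transcription factor of B cells and dendritic cells, was at 12.2, 5.05, 45.1, and 68.8 CPM with DMSO and at 1.93, 3.40, 3.19, and 7.16 CPM with SAG. SAG replicate 4 alone overlapped with the DMSO libraries, and the log2 fold change was -3.06 (adjusted p = 0.0539). Prdm1, which encodes Blimp-1, a repressor of Ciita in plasma cells, followed in size at -2.38 (adjusted p = 0.414). It was at 2.70, 1.61, 0.030, and 14.4 CPM with DMSO and at 0.479 to 1.19 CPM with SAG. Its value thus leans on DMSO replicate 4, with low counts elsewhere.

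Among 16 targets of interferon gamma, which induces Ciita, 0 passed in either direction, 8 had log2 fold changes above 0 and 8 below, and the median was 0.09. The values largest in size were those of Igtp, an interferon-inducible GTPase (1.43, adjusted p = 0.211), and Socs1, an inhibitor of the signal (-1.27, adjusted p = 0.138).

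Of 11 tested genes of endosomal antigen processing, 0 passed (median 0.03). The largest log2 fold changes in size were those of the proteases cathepsin H (Ctsh, 0.57, adjusted p = 0.35) and cathepsin D (Ctsd, 0.49, adjusted p = 0.18). Of 10 genes of class II trafficking and turnover 0 passed (median 0.42), with the largest values for Arl14 (1.71, adjusted p = 0.768, from low counts) and March1 (1.15, adjusted p = 0.243), a ubiquitin ligase that removes class II molecules from the surface. Of 6 co-stimulation partners 0 passed (median 0.18). The largest values in size were those of the T cell ligand Icosl (1.22, adjusted p = 0.173) and the receptor Cd40 (-0.97, adjusted p = 0.399).

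The only gene of these lists that passed with all 8 libraries belonged to class I presentation, in which 1 of 15 genes was called higher and 0 lower (median 0.21). H2-D1, a class I heavy chain, was at 358.7, 463.2, 532.5, and 565.8 CPM with DMSO and at 719.7, 1119, 880.5, and 1082 CPM with SAG. Every SAG library was above every DMSO library, and the log2 fold change was 0.99 (SE 0.21, adjusted p = 0.0301). With each of the 8 libraries left out in turn, H2-D1 was called in 2 fits (without DMSO replicate 4 and without SAG replicate 1) and not in 6, with adjusted p-values from 0.00822 to 0.106, and it was not called with the neutrophil marker score as a term (0.40, adjusted p = 0.651). B2m, the light chain of class I, followed in size (0.67, adjusted p = 0.122). Among 9 nonclassical class I genes 0 passed (median -0.47), with the largest values for H2-M3 (-1.81, adjusted p = 0.395) and H2-Q6 (-1.48, adjusted p = 0.462).

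By edgeR at an unadjusted p under 0.05, 2 promoter factors were higher and 0 lower, 4 regulators of Ciita were higher and 3 lower, and 1 target of interferon gamma was higher and 1 lower. The same counts were 1 and 0 for endosomal processing, 4 and 1 for trafficking, 1 and 0 for co-stimulation partners, 2 and 0 for class I, and 1 and 0 for nonclassical class I genes, beside 9.58% of all tested genes higher and 6.5% lower. DESeq2 called Ep300 and the adaptor subunit gene Ap1m1 higher and Irf4 and Socs1 lower, as well as H2-D1 higher. Ap1m1 is named because DESeq2 called it, after its values were seen. Without DMSO replicate 4, edgeR called Ep300, Ap1m1, Ctsd, H2-D1, B2m, and the immunoproteasome subunit gene Psmb8 higher, beside the 5 regulators of Ciita, and 0 genes of these lists lower.

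Markers of cells other than those of the growth plate were detected in these libraries, although viable mCherry+CD73+ cells had been sorted. The source of this RNA was not tested. Col2a1, the collagen of cartilage, was at 32463 to 68832 CPM with DMSO and at 11759 to 34149 CPM with SAG, and Nt5e, which encodes CD73, and Pthlh were detected in all 8 libraries. The 11 chondrocyte markers had log2 fold changes below 0, and by edgeR 0 passed the test, with 10 at an unadjusted p under 0.05 and 5 called lower by DESeq2. Their summed level was 47345 to 108888 CPM with DMSO and 18943 to 53359 CPM with SAG. Of 13 neutrophil markers, 10 were called higher with SAG, and their summed level was 4675 to 13738 CPM with DMSO and 26108 to 41384 CPM with SAG.

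Markers of the B lineage, apart from the mature B cell list given further below, were present as well. Of 14 tested B lineage markers, 3 were called lower with SAG and 0 higher, among them Pax5, the transcription factor that commits cells to this lineage (19.4, 19.4, 53.9, and 89.9 CPM with DMSO and 2.33, 4.54, 4.33, and 3.76 CPM with SAG). Cd79a, a subunit of the B cell receptor complex, was at 9.93, 11.9, 36.7, and 55.4 CPM with DMSO and 4.77, 5.54, 2.34, and 5.25 CPM with SAG. The summed level of the list was 122.7, 100.7, 318.8, and 545.7 CPM with DMSO and 35.4, 42.8, 30.6, and 62.7 CPM with SAG, so that DMSO replicate 4 was highest here as well and no SAG library reached the DMSO range. No marker of the list was at 0 in every library or in every SAG library.

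The summed levels of the markers of mature B cells, dendritic cells, and monocytes and macrophages overlapped between the groups. For the first 2, the sum leans on Cd37 or Cd24a and does not show how the other markers differ. The monocyte and macrophage sum leans in part on F13a1 (245.8 to 650.8 CPM with DMSO and 95.4 to 231.7 CPM with SAG), with the same limit. Markers of mature B cells (7 tested, 0 passed) summed to 55.6 to 178.3 CPM with DMSO and 105.1 to 150.4 CPM with SAG, dominated by Cd37. The log2 fold change was below 0 for 5 of these 7 and above 0 for 2 (median -1.49). Markers of dendritic cells (10 tested, 0 passed) summed to 196.5 to 477.8 and 313.2 to 516.5 CPM, most of it Cd24a, which other blood cells also express. Of these 10, 6 were below 0 and 4 above (median -0.45). Markers of monocytes and macrophages (13 tested) summed to 626.4 to 1225 CPM with DMSO and 668.7 to 915.8 CPM with SAG, and 1 of them, Ly6c2, was called higher. Of these 13, 5 were below 0 and 8 above (median 0.23). Of plasmacytoid dendritic cell (5), T and NK cell (7), and endothelial (6) markers 0 passed. DESeq2 called 1 mature B cell marker (Ms4a1) lower, 0 markers of dendritic cells, and, of the macrophage list, Ly6c2 higher and Mertk and F13a1 lower. Every SAG library was below every DMSO library for Mertk (log2 fold change -0.99) and F13a1 (-1.03). Without DMSO replicate 4, edgeR called 4 B lineage and 7 chondrocyte markers and F13a1 lower, and 11 neutrophil markers, Ly6c2, and Cd24a higher. Which cells the class II reads came from was not tested.

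**Figure D5:**
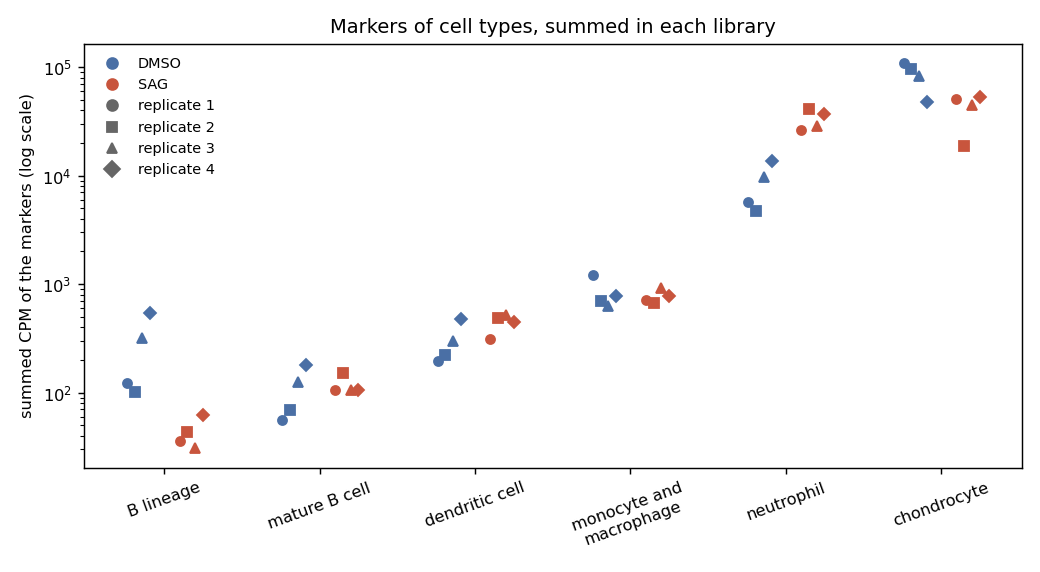
Summed CPM (vertical axis, log scale) of the markers of 6 cell types in each DMSO (blue) and SAG (red) library, with marker shapes for replicates 1 to 4. The B lineage sum lies between 100.7 and 545.7 CPM with DMSO and between 30.6 and 62.7 CPM with SAG, and the neutrophil sum is higher in all SAG libraries.

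With the B lineage marker score of each library as a term in the fit, the log2 fold change was -0.06 for H2-Ab1 (95% interval -0.99 to 0.88), 0.25 for H2-Aa (-2.17 to 2.67), and 0.26 for Cd74 (-0.98 to 1.5). With the neutrophil marker score as a term, it was -1.84 for H2-Ab1 (-2.84 to -0.83), -3.35 for H2-Aa (-5.35 to -1.35), and -2.26 for Cd74 (-3.32 to -1.21). In neither fit was any of the 10 genes called. Treatment accounted for 68.8% of the variance of the first score and 79.5% of that of the second, so that treatment and these scores can hardly be told apart with 8 libraries, and their part in the levels of the class II genes was not tested.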

How the data were processed

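Sorted cells of 8 mice, 4 given DMSO and 4 given SAG, gave total RNA for sequencing after extraction with a micro kit and preparation of stranded total RNA libraries. The authors deposited 1 table of estimated counts per gene and library as whole numbers, without scaling. Per the labels, the submitters' processing notes name kallisto, DESeq2, and GRCm38 without versions of the tools. Transcript quantification of this kind splits reads between similar transcripts. All 8 libraries were matched to their labels, and 16524 of 16536 symbols were found in GENCODE M21. Replicates are separate mice, and replicate numbers do not pair them.

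In R 4.3.3, edgeR 4.0.16 (filterByExpr, TMM, robust quasi-likelihood test, Benjamini-Hochberg threshold 0.05) compared SAG with DMSO over 15421 genes (common dispersion 0.466). SE was the log2 fold change divided by the root of F, and log2 CPM used a prior count of 2. Alternatives were DESeq2 1.42.0, voom of limma 3.58.1, other scalings and filters, a replicate block, marker scores as covariates, and each library left out. Ratios used exact permutation tests with 0.5 added to counts. Simulated data, in which 200 of 15421 genes were changed, served to test both tools, and edgeR made 0, 6, and 11 false calls and DESeq2 40, 56, and 63 at 2-fold, 4-fold, and 8-fold changes. Depth ranged from 24971992 to 46593090 counts per library.

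The 10 genes, lists, and markers were chosen with earlier results of these data known. All 10 were named, with each list gene that passed and the 2 of largest absolute log2 fold change per list. Protein sequences were not used here.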

Additional observations from a re-analysis of the deposited data

Results flagged for a closer look

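A level was marked for a closer look when the highest or lowest of the 4 libraries of a group stood apart from the nearest other by more of the range of the group than Dixon's 95% critical value. Of 34 such tests of the members' levels and ratios 4 were marked, where chance gives about 1 in 20, or 1.7. All 4 concern DMSO replicate 4. H2-Aa was at 67.6 CPM there, and the nearest DMSO library was at 13.5 CPM. H2-Ab1 was at 94.9 CPM there, and the nearest DMSO library was at 48.8 CPM. Cd74 was at 182.5 CPM, with the nearest at 72.7 CPM, and Ciita at 8.09 CPM, with the nearest at 1.77 CPM. This library also had the lowest total, the fewest detected genes, and the highest summed B lineage markers, and the part of these in the 4 levels was not tested.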

How the results depend on the processing

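The count of members called lower was 0 under every alternative except DESeq2, which gave 1 (H2-Ab1), and the count called higher was 0 under all. Replicate numbers did not pair the mice (correlations of deviations 0.120, 0.0219, 0.0195, and 0.0102), and with a replicate block 0 members were called. H2-Ab1 and H2-DMb1 kept their sign under all alternatives, and so did H2-Aa and Cd74 apart from the B lineage covariate, which turned H2-Aa to 0.25, Cd74 to 0.26, H2-Oa to -1.01, H2-Ob to 1.59, and Ciita to 0.71. H2-DMb2 turned to -0.030 with DESeq2, -0.030 with its size factors, -0.048 with plain library size, -0.014 without a filter, and -1.74 with the neutrophil covariate. H2-Ob turned to 0.51 with voom and 0.052 with the replicate block. With each library left out, the log2 fold change ranged from -0.22 to 0.14 for H2-Eb1, -0.34 to 0.057 for H2-DMa, -0.40 to 0.55 for H2-DMb2, -0.52 to 0.25 for H2-Ob, and -1.41 to 0.43 for Ciita. Differences of log2 ratios then ranged from -0.50 to 0.33 for H2-Aa over H2-Ab1, -0.16 to 0.77 for H2-Ob over H2-DMa, and -0.33 to 0.79 for Ciita over H2-Ab1. That of H2-DMa over H2-Ab1 ranged from 0.24 (without DMSO replicate 4) to 0.996. By the longest transcript 5 members kept their place in the order of levels, and without DMSO replicate 4 the 10 genes closest in pattern shared 2 with the main 10. The causes were not tested. Over all genes, 404 were called higher and 41 lower, against 812 and 413 with DESeq2, 995 and 398 with voom, 558 and 87 with at least 10 counts in every library (which dropped H2-Oa), 334 and 18 with the replicate block, 574 and 136 with the B lineage covariate, and 0 and 7 with the neutrophil covariate; without 1 library the counts ranged from 80 (DMSO replicate 2) to 1017 (DMSO replicate 4) higher and from 4 (DMSO replicate 3) to 343 lower. The wide intervals of H2-Oa and Ciita limit what could be detected for them.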
